A study of Mus musculus with 8 samples.

Results

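Tyrobp, Fcer1g, Fcgr1, Fcgr2b, Fcgr3, Trem2, Syk, Sirpa and Fyb were followed in calf muscle of mice that ate ursolic acid, a triterpenoid of fruit peel, and of mice that did not. These 9 genes make up the adaptors, receptors and kinase of a signalling route of myeloid cells, and they were picked by name with earlier results of the same comparison known. A gene was followed through the array row that carries it as its only symbol. That gave 8 of the 9 genes, 1 row each, among 14860 genes measured in this way. Fcgr2b had no such row, and the row annotated with both Fcgr2b and Fcgr3 was assigned to neither gene.

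The 8 arrays came from gastrocnemius of male C57BL/6 mice, 12 weeks of age by the labels. The control group had 4 samples from mice on standard chow, and the ursolic acid group had 4 from mice given that chow with 0.27% ursolic acid for 5 weeks. RNA of 2 mice was pooled in each sample, and the strain, sex, age, muscle and chow were shared by both groups. A free-text description contradicts the title and treatment field in 4 of the 8 samples: control samples 2 and 4 are described as treated, and ursolic acid samples 1 and 3 as untreated. Groups follow the titles here. Array medians ran from 5.55 to 5.61 on the log2 scale, and control sample 1 had the lowest mean Spearman correlation with the other arrays (0.977, against 0.983 to 0.986). Skeletal muscle fibre markers such as Tnnt3 and Acta1, with means of 12.50 and 12.05 in control, were bright on every array, and none of the 8 measured fibre markers passed an unadjusted limma p of 0.05 between groups.

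Myeloid cells read antibodies, lipids and cell debris through receptors that have little or no signalling tail of their own. Such receptors pair in the membrane with small adaptors, TYROBP (also called DAP12) or the Fc receptor gamma chain FCER1G, whose tails carry an immunoreceptor tyrosine-based activation motif (ITAM). Kinases of the Src family phosphorylate the motif, the kinase SYK docks on it, and scaffold proteins carry the signal on. Receptors with the inhibitory counterpart of the motif, among them FCGR2B and SIRPA, recruit phosphatases instead. In muscle, resident and recruited macrophages are the main cells known to use this route.

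Within this group of genes, muscle from mice fed ursolic acid had higher values of the adaptor Tyrobp and of the scaffold Fyb, a small shift in Sirpa, and little or no difference in the second adaptor Fcer1g or in the receptors Fcgr1 and Trem2. Tyrobp was 1.61-fold higher (95% interval 1.36 to 1.90) and Fyb 1.37-fold higher (1.23 to 1.53). The fold for Fcer1g was 1.00 (0.855 to 1.18). Because the genes were chosen with this contrast in view, their differences are given as descriptions and are not tested. Over all 16755 rows, limma called 0 rows at an adjusted p of 0.05 (0%), and 1185 (7.07%) passed an unadjusted p of 0.05.

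Tyrobp, the adaptor itself, had log2 values of 7.58, 7.36, 7.24 and 7.55 in control samples 1 to 4 and of 8.16, 7.87, 8.17 and 8.29 in ursolic acid samples 1 to 4. The groups did not overlap, and the lowest treated sample, number 2, lay above the highest control, number 1. The group means were 7.43 ± 0.16 (SD, n = 4) and 8.12 ± 0.18, a log2 difference of 0.69 ± 0.11 (SE). Leaving out any 1 sample kept the difference between 0.62 and 0.77. In a bulk sample, more cells of a type and more RNA per cell cannot be told apart, which holds for every gene described here.

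The other adaptor, Fcer1g, which serves the IgG and IgE receptors, was at 5.94, 6.18, 5.81 and 6.23 in the control samples and at 5.96, 5.94, 6.10 and 6.18 with ursolic acid. The treated values lay entirely inside the control range. The log2 difference was 0.01 ± 0.10 (SE), with a 95% interval of −0.23 to 0.24; the interval of Tyrobp was 0.45 to 0.93. Whether the adaptors differ from each other in this was not tested.

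**Figure D1:**
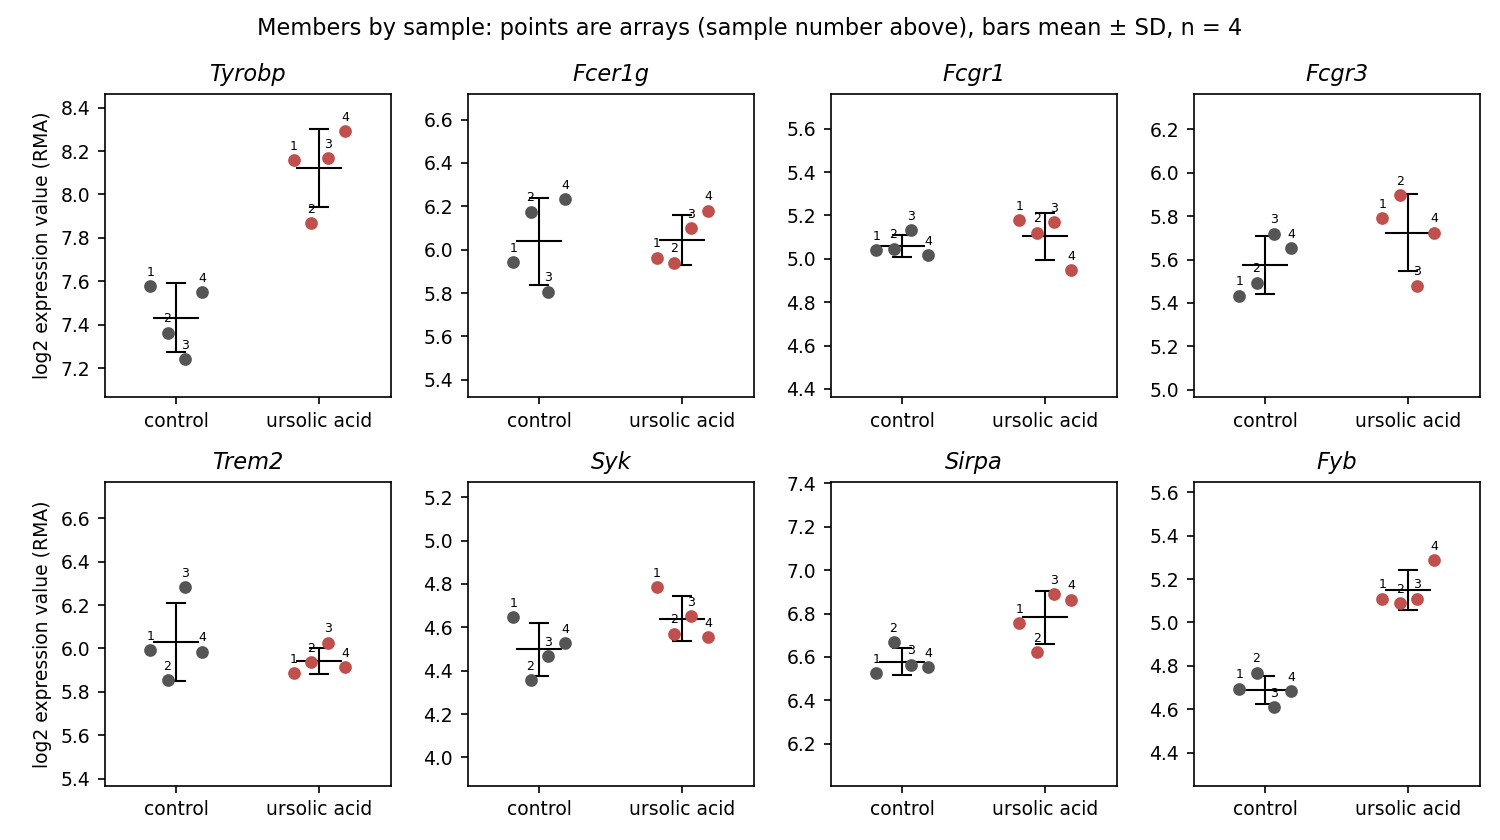
Log2 expression values (vertical axis, each panel spanning the same width of 1.4 log2 units) of the 8 measured genes in control (grey) and ursolic acid (red) samples. Points are arrays with the sample number above, and bars are the mean ± SD of 4. Only in Tyrobp and Fyb are the 2 groups apart. Fcer1g, Fcgr1, Fcgr3, Trem2, Syk and Sirpa overlap.

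Among the receptors, Fcgr1, the high-affinity IgG receptor, was measured at 5.04, 5.05, 5.13 and 5.02 in control and at 5.18, 5.12, 5.17 and 4.95 with ursolic acid. Treated sample 4 had the lowest value of all 8, and the other treated samples lay near or just above the controls. Its log2 difference was 0.04 ± 0.07 (SE), with an interval of −0.11 to 0.20. Fcgr3, a low-affinity IgG receptor that signals through FCER1G, was at 5.43, 5.49, 5.72 and 5.65 in control and 5.79, 5.90, 5.48 and 5.72 with ursolic acid. Here 3 treated samples stood above every control and treated sample 3 fell among the lowest. The difference of 0.15 ± 0.10 depended on single arrays, being 0.09 without ursolic acid sample 2 and 0.23 without ursolic acid sample 3. The row shared by Fcgr2b and Fcgr3 ran from 4.80 to 5.25 in control and from 4.93 to 4.98 with ursolic acid and its groups overlapped. These receptors have closely related extracellular parts, and probes of one may also bind transcripts of the other. How far that entered the Fcgr3 values was not tested.

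Trem2, a lipid receptor that signals through TYROBP, had values of 5.99, 5.85, 6.28 and 5.99 in control and of 5.89, 5.94, 6.03 and 5.91 with ursolic acid. It was the 1 gene of the 8 with a lower mean in treated muscle, by a log2 difference of −0.09 ± 0.09 (SE) and an interval of −0.29 to 0.12. Without control sample 3, its highest value, the difference was 0.00. The partner adaptor Tyrobp was thus high in samples in which this receptor was not.

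Syk, the kinase that docks on phosphorylated ITAMs, was at 4.65, 4.36, 4.47 and 4.53 in control and at 4.78, 4.57, 4.65 and 4.55 with ursolic acid. The treated group lay toward the upper end of an overlapping range, with a log2 difference of 0.14 ± 0.08 (SE) and an interval of −0.04 to 0.33. Fyb, the scaffold ADAP that links LCP2 to integrin activation in blood cells, stood at 4.69, 4.77, 4.61 and 4.68 in control and 5.11, 5.09, 5.11 and 5.29 with ursolic acid. Every treated sample was above every control, and the spread within each group was small (SD 0.06 and 0.09). Its difference was 0.46 ± 0.07, and 0.41 without ursolic acid sample 4, the highest.

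Sirpa, the inhibitory receptor for the cell-surface protein CD47, was at 6.52, 6.67, 6.57 and 6.55 in control and 6.76, 6.62, 6.89 and 6.86 with ursolic acid. The groups overlapped through 1 sample on each side, treated sample 2 lying below control sample 2. The log2 difference was 0.20 ± 0.08 (SE), or a fold of 1.15 (1.03 to 1.30). It was 0.17 without ursolic acid sample 3 and 0.26 without ursolic acid sample 2.

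Counted together, 7 of the 8 genes had a higher mean with ursolic acid, against 45.5% of all rows, and 2 of the 8 had groups that did not overlap in that direction, against 2.66% of all rows. None had groups apart in the lower direction, where 1.83% of all rows did. The median log2 difference was 0.14, and over all rows it was −0.01. Nothing is read from these counts, since the genes were chosen with the contrast known. The 2 ends of the range were Tyrobp at 0.69 and Trem2 at −0.09.

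Signal near the floor of the arrays limits some of these values. The 801 rows of olfactory and vomeronasal receptor genes, most of which serve sensory neurons, had a median of 3.77 and a 95th percentile of 5.65. By mean level, Tyrobp, Fcer1g, Fcgr3, Trem2 and Sirpa lay above that percentile, and Fcgr1, Syk and Fyb below it. No detection call is given per row, and rows differ in probe brightness, so a gene below the percentile is not thereby undetected. How much of the signal of Fcgr1, Fcgr3, Syk and Fyb is background was not tested.

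The sequences around the start sites of 7 of the 9 genes were taken from RefSeq (build GRCm38.p6, 250 bases before to 50 after the start), and Tyrobp and Sirpa had no entry. They were searched on both strands for GAGGAA, the purine-rich core of many sites of PU.1, a transcription factor of myeloid cells. The motif was present in 5 of the 7 genes (Fcgr1, Fcgr3, Fyb, Syk at 1 of its 2 starts, and Trem2), where 31.3% of all 27025 genes in the table have it in at least 1 window. Fcer1g and Fcgr2b had no match, which says only that these letters are not in those windows. Windows of 3 genes are printed to set Fyb, whose groups did not overlap, beside Fcgr1 and Fcgr3, whose groups did. Capitals mark the motif, read as TTCCTC where it lies on the opposite strand.
Fyb, chr15:6579597-6579896, plus strand: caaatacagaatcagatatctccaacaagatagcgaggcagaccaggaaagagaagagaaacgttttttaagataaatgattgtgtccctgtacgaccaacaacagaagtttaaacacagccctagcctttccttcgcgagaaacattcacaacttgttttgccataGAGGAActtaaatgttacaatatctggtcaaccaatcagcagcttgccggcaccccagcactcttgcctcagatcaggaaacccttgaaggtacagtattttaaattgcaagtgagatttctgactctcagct
Fcgr1, chr3:96293920-96294219, minus strand: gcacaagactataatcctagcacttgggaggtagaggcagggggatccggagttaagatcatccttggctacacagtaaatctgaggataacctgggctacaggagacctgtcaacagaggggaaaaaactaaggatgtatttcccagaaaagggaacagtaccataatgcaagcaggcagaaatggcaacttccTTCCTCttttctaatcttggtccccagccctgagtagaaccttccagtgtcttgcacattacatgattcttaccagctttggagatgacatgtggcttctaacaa
Fcgr3, chr1:171059354-171059653, minus strand: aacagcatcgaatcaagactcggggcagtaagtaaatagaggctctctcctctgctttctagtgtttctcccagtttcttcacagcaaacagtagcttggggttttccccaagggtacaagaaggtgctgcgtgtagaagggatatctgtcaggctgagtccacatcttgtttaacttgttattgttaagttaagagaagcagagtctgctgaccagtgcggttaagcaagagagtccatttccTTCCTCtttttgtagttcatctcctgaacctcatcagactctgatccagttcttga
In Fyb the motif began 83 bases before the start, on the strand of the gene. In Fcgr1 it began 55 bases before the start and in Fcgr3 6 bases before the start of the printed window, on the opposite strand in both. Fcgr3 has another listed start, not printed, and the same motif began 15 bases before that. Trem2, with a log2 difference of −0.09, and Syk, with one of 0.14, also held it, and Fcer1g, with one of 0.01, did not. With no window for Tyrobp or Sirpa, whether the motif goes with the differences was not tested. A match is a string of letters and not a measured binding site.

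Over the 8 arrays, the genes most like Tyrobp were C3ar1, H2-Aa, Socs2, Lum, Fmo2, Alox5ap, Ctss and F13a1. Likeness was the mean absolute difference between log2 profiles after each gene's own mean was subtracted, and it was 0.08 for C3ar1, the complement C3a receptor of myeloid cells, and 0.11 for F13a1, the A chain of coagulation factor XIII. Ctss, a lysosomal protease, and H2-Aa, a class II chain, are used by antigen-presenting cells, and Alox5ap serves leukotriene synthesis. Lum is a matrix proteoglycan, Fmo2 a monooxygenase and Socs2 an inhibitor of growth hormone signalling, so the nearest genes were not all genes of myeloid cells. All 8 had log2 differences of 0.49 to 0.71, which a profile with a difference of 0.69 favours.

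By the same measure Fyb ranked 22 among the 14859 other genes. Sirpa ranked 333 and Syk 801, followed by Fcgr3 at 2719 and Fcgr1 at 3430. Fcer1g ranked 5527 and Trem2 11090. Trem2 thus had the profile least like that of Tyrobp among the 7 other genes followed. Because the measure takes in the difference between groups, these ranks largely follow the differences given above and are no separate result.

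**Figure D2:**
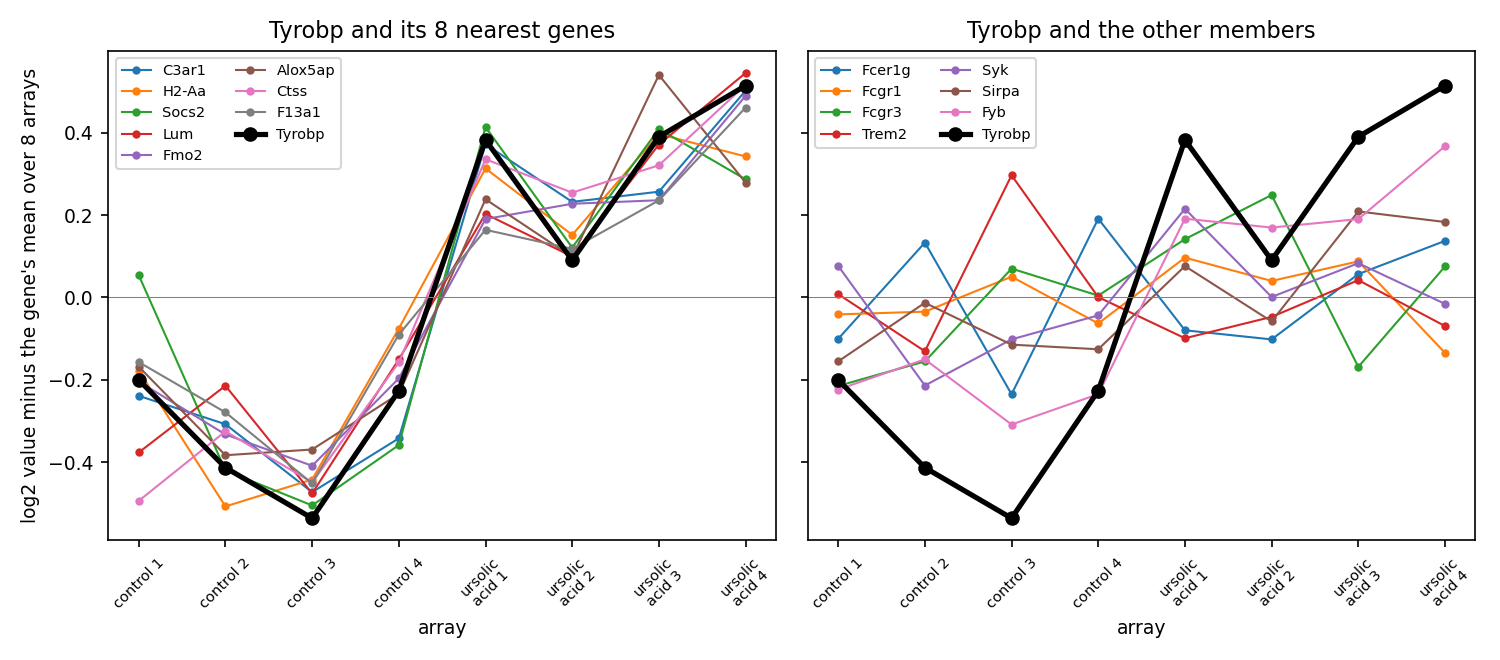
Log2 values minus each gene's mean (vertical axis) on the 8 arrays (horizontal axis), for Tyrobp (black) with its 8 nearest genes at left and with the other 7 measured genes at right. Lines only join points of one gene, since samples of a group have no order. The nearest genes lie low in control and high with ursolic acid, while Fcer1g and Trem2 run across both groups.

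The other genes of the route, in 6 lists chosen by role, were mostly level between groups. Of 93 measured genes, 38 were higher and 55 lower, with a median log2 difference of −0.02. At an unadjusted limma p of 0.05, 6 were higher (6.45%, against 4.08% of all rows) and 2 lower (2.15%, against 3% of all rows). Both shares lie near those of all rows, and no gene passed at an adjusted p of 0.05. Without ursolic acid sample 1 only 3 were higher, and without control sample 2 or ursolic acid sample 4, 0 were lower. By mean over all 8 arrays, only 23 of the 93 genes lay above the 95th percentile of the olfactory and vomeronasal receptor rows. For the rest, signal near the floor limits what a small difference shows. Of the genes that passed the unadjusted threshold, Fcgrt and Cd47 lay above that percentile in both groups. Csf1r lay above it only by its treated values, with a mean of 5.56 in control and of 5.87 with ursolic acid. Itgam, Cd300ld, Ptprc, Fcrlb and Ms4a2 lay below it.

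A list of 15 receptors was drawn up for links to Tyrobp or Fcer1g. Not all of them pair directly with an adaptor, and Csf1r and Clec7a are exceptions. In that list 3 of 15 passed the unadjusted threshold and all 3 were higher, where 4.08% of all rows were higher and 3% lower. Csf1r, the receptor of the macrophage growth factor CSF1, went from 5.56 ± 0.08 (SD, n = 4) to 5.87 ± 0.12, a log2 difference of 0.31 ± 0.08 (SE). Its limma adjusted p over all rows was 0.339. Itgam, the integrin chain CD11b, and Cd300ld, an activating receptor of myeloid cells, had differences of 0.15 and 0.27. Groups did not overlap in Csf1r and Itgam. The 12 others, among them Trem1, Clec4e and Clec7a, had differences of −0.09 to 0.06.

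Among 11 other Fc receptors, Fcgrt, the neonatal Fc receptor that recycles IgG, had a log2 difference of 0.15 ± 0.07 (SE), and Fcrlb, an Fc receptor-like gene, one of −0.28 ± 0.11. The 9 others did not pass an unadjusted limma p of 0.05, which 7.07% of all rows passed in either direction. Of 8 other ITAM adaptors and chains, only Ms4a2, the beta chain of the IgE receptor of mast cells, passed, beside the same 7.07%. Its difference was −0.22 ± 0.09. Its means were 4.16 in control and 3.94 with ursolic acid, near the median of 3.77 of the olfactory and vomeronasal receptor rows. Hcst, the adaptor DAP10 that is encoded beside Tyrobp in the genome, had a difference of −0.01 ± 0.16, with treated values of 4.79 to 5.36 within control values of 4.87 to 5.49 but for sample 3.

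None of the 7 measured Src and Syk family kinases passed the unadjusted threshold, which 7.07% of all rows passed in either direction. Their log2 differences ran from −0.10 for Fgr to 0.12 for Fyn. Lyn and Lck had no row of their own and were not analysed here. Downstream of Syk, 0 of 28 scaffolds and enzymes passed, beside the same 7.07%, with differences of −0.19 to 0.17. Lists this short may hold no such gene at that share, so nothing is read from these counts. Of the 28, Lcp2, the scaffold SLP-76 that binds the product of Fyb, had a difference of 0.14 ± 0.08 (SE). Plcg2, the phospholipase of myeloid and B cells, had a difference of −0.02 ± 0.06.

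In a list of inhibitory receptors, ligands and phosphatases, 2 of 24 genes passed the unadjusted threshold and both were higher. That share is near the 7.07% of all rows that passed in either direction. The 2 were the ligand Cd47 and the phosphatase Ptprc, and no inhibitory receptor in the list passed. Cd47, the ligand of SIRPA, was at 7.15, 7.27, 7.23 and 7.34 in control and at 7.40, 7.37, 7.46 and 7.53 with ursolic acid. The groups did not overlap, and the log2 difference was 0.19 ± 0.07 (SE). By limma the adjusted p of Cd47 over all rows was 0.574. Ptprc, the leukocyte phosphatase CD45, had a difference of 0.28 ± 0.09. The phosphatases Ptpn6 and Ptpn11 and the lipid phosphatase Inpp5d, which act behind inhibitory receptors, had differences of 0.03 ± 0.06, 0.11 ± 0.09 and 0.07 ± 0.07.

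**Figure D3:**
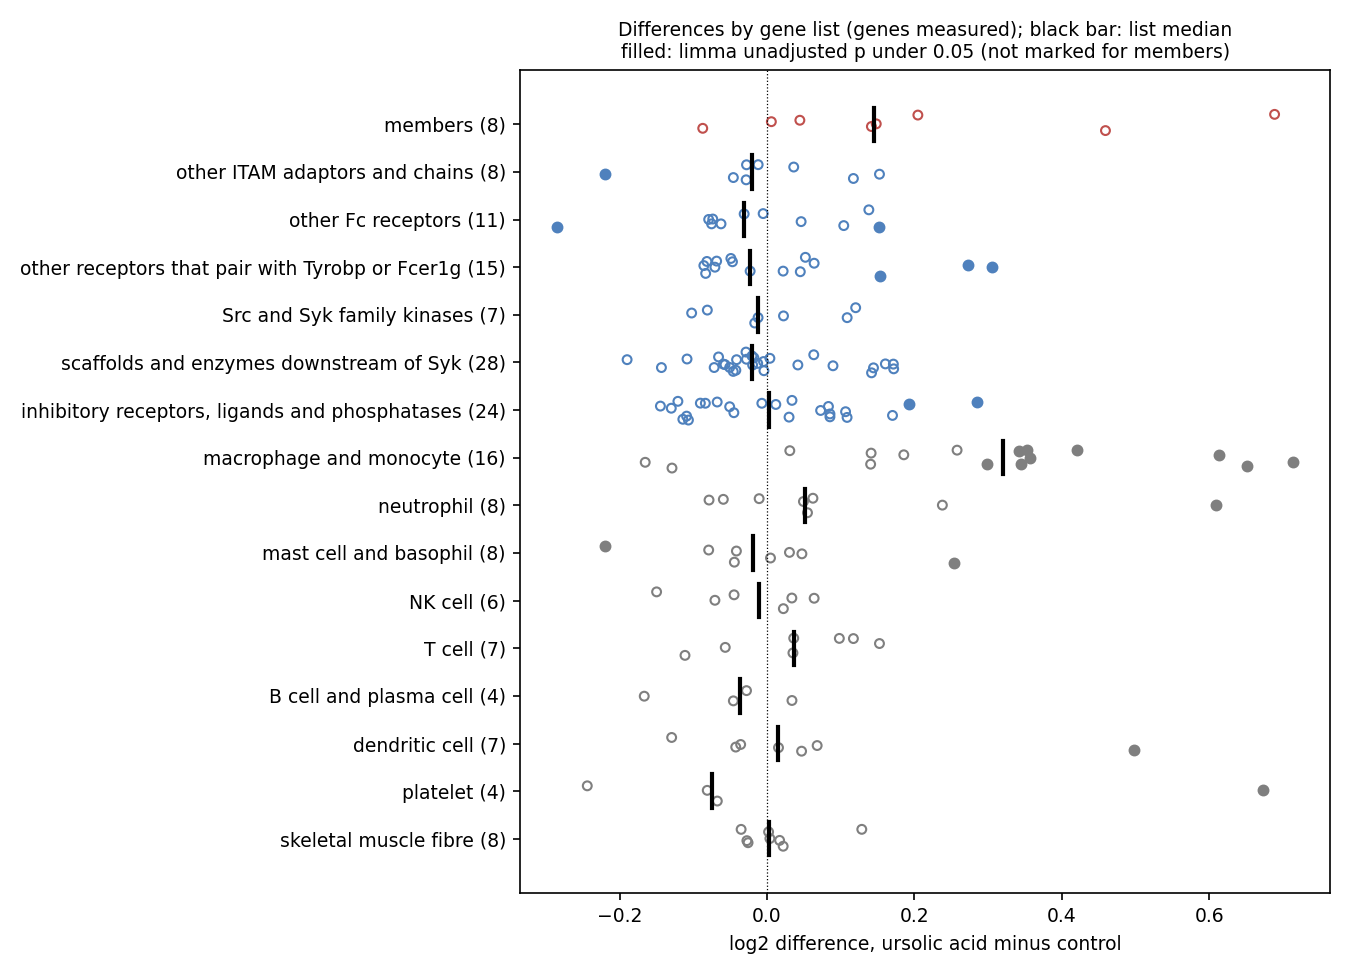
Log2 differences, ursolic acid minus control (horizontal axis), of each measured gene in the lists named at left, with the number of genes in parentheses. Black bars are list medians and filled points passed an unadjusted limma p of 0.05, which is not marked for the 8 genes in red. Lists of the signalling route centre near 0, and macrophage and monocyte markers centre at 0.32.

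Markers of macrophages and monocytes were also mostly higher in the samples in which Tyrobp and Fyb were high. Of 16 measured markers, 14 were higher, against 45.5% of all rows, and the median log2 difference was 0.32. Of the 16, 9 passed an unadjusted limma p of 0.05, all higher, where 4.08% of all rows did so in that direction. None passed at an adjusted p of 0.05. This list, like the others, was drawn up with earlier results of these data known, so these shares are descriptions. The summed linear signal of the 16 ran from 855 to 994 in control and from 1072 to 1285 with ursolic acid. Its brightest member was Ctss, also among the genes nearest Tyrobp, with log2 means of 7.28 and 7.99. By mean over all arrays, Adgre1, Cd14, Spi1, Mertk, Timd4, Lyve1 and Folr2 lay below the 95th percentile of the olfactory and vomeronasal receptor rows. Cd163 and Ccr2 lay above it only by their treated values, with control means of 5.56 and 5.51. Mrc1, the mannose receptor, had a difference of 0.65 ± 0.12 (SE) and Ccr2, a chemokine receptor that draws monocytes into tissue, one of 0.61 ± 0.14, while Cx3cr1, a chemokine receptor of monocytes and resident macrophages, had one of −0.13 ± 0.17. How much of the difference in Tyrobp or Fyb goes with the number of macrophages was not tested.

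Markers of other blood cells were counted in the same way, in lists of 4 to 8 genes and beside 7.07% of all rows passing in either direction. The count at an unadjusted p of 0.05 was 1 of 8 for neutrophil markers (S100a9, 0.61), 2 of 8 for mast cells and basophils (Cpa3, 0.25, and Ms4a2, −0.22), and 0 for NK, T and B cell markers (6, 7 and 4 genes). It was 1 of 7 for dendritic cells (H2-Ab1, 0.50) and 1 of 4 for platelets (Pf4, 0.67, while Ppbp had −0.08 and Itga2b −0.07). These values are log2 differences. By mean level, S100a9, Cpa3, Ms4a2, Ppbp and Itga2b lay below the 95th percentile of the olfactory and vomeronasal receptor rows, and H2-Ab1 and Pf4 above it. Tyrobp and Fyb are used by several of these cells, and Fyb also by T cells.

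The free-text description gave a contrast that was not used to choose the genes, since it splits each group into 2 and 2. With treatment by title in the same limma fit, 0 of the 8 genes passed an adjusted p of 0.05 between samples described as treated and untreated (0% of all rows). None passed at an unadjusted p of 0.05 either, where 13.5% of all rows did. Adjusted p-values ran from 0.412 for Fcer1g to 0.975 for Sirpa. Fcer1g had a log2 difference of 0.18 ± 0.09 (SE), described as treated minus untreated, Syk one of −0.14 ± 0.07 and Tyrobp one of −0.02 ± 0.11.

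Within samples described as untreated, Tyrobp was 0.75 higher with ursolic acid on the log2 scale, and within those described as treated it was 0.62 higher. The corresponding differences of Fyb were 0.46 in both classes, and those of Sirpa were 0.28 and 0.13. Fcer1g differed in sign between the classes, at 0.16 and −0.14, each from 2 arrays against 2 and untested. Which of title and description is right for the 4 contradictory samples cannot be told from the labels.

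**Figure D4:**
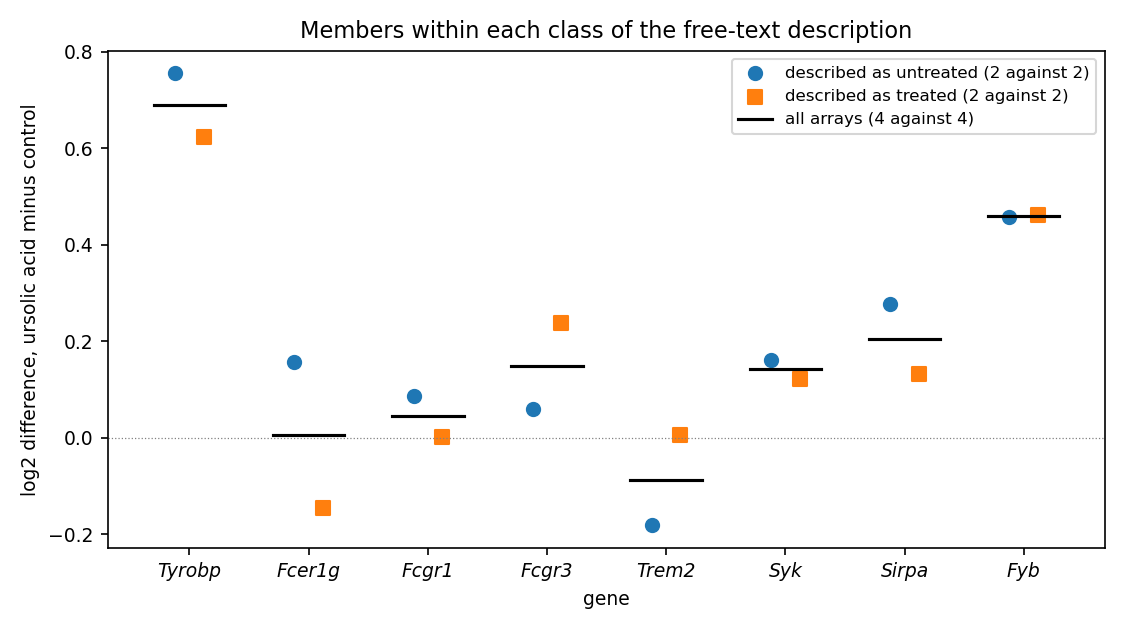
Log2 differences, ursolic acid minus control (vertical axis), of the 8 measured genes in all arrays (black lines) and in samples described as untreated (circles) or treated (squares), 2 against 2 in each class. Tyrobp and Fyb are above 0.4 in both classes, and Fcer1g lies on both sides of 0.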

How the data were processed

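Total RNA of 8 pooled gastrocnemius samples was amplified, labelled with biotin and read on arrays, per the labels' protocols. The deposited log2 values were made by the authors with RMA and build mm9, per the submitters' processing notes. The RMA version and any row filter are not given in those notes. Base 2 was inferred from the highest value, 13.2. The number of arrays limits precision.

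Of 16755 rows, 14996 carried 1 symbol, of which 14941 matched RefSeq (GRCm38.p6) by gene number. The fit was limma 3.58.1 under R 4.3.3 (lmFit and eBayes without trend, 4 arrays a group). Tests were two-sided and p-values were adjusted over all rows by Benjamini-Hochberg. Pools may share mice, so p-values measure only the spread between these samples. With 200 of 16755 simulated rows changed between ursolic acid and control, 65.6% of changes of 0.5 and 94.4% of changes of 1 (log2) were recovered, with 4.55% false among calls. For the description contrast these were 61.9%, 93.4% and 4.08%. Simulated noise was independent between rows and arrays, had the spread left after fitting treatment and description, and held no description effect. In the real data that variation stays in the fit of treatment alone, so recovery there may be lower.

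The genes and lists were chosen with earlier results of these data known. Named were the 9 genes, pathway genes with an unadjusted p under 0.05 (up to 6 a list), 6 direct partners, the 8 genes nearest Tyrobp, and in each marker list the 3 brightest and up to 4 under that p. Trem1, Clec4e, Clec7a, Fgr, Fyn, Lcp2 and Plcg2 fall outside this rule and were named after their values were seen. Alternatives were other normalizations, moderation, filters, sample deletions and uses of the description.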

Additional observations from a re-analysis of the deposited data

Results flagged for a closer look

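Named genes gave 116 groups of 4 values, and in 7 of them 1 array stood apart. By chance alone about 1 group in 20 does so. The measure is the distance from that array to its closest neighbour, as a share of the whole spread. Fyb had its highest treated value in ursolic acid sample 4, at 5.29 against 5.09 to 5.11 in the others (0.891), and Fmo2 was also highest there (0.847). Ursolic acid sample 2 was lowest in Zbtb46 (0.868) and in Tnnt3 (0.916). Control sample 1 was highest in Cd4 (0.840) and in Tnni2 (0.937), and control sample 3 was lowest in Nkg7 (0.831). Among the 8 genes followed, only Fyb had such a sample, and its difference without it was 0.41 on the log2 scale.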

How the results depend on the processing

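Tyrobp, Fcgr3, Syk, Sirpa and Fyb had differences above 0 in all 16 alternatives that kept the titles. Fcgr1 was above 0 in 15, Fcer1g in 11 and Trem2 in 1. The median of the 8 genes was 0.14, stayed at 0.11 to 0.16 when single samples were left out, was 0.19 in samples whose title and description match, and −0.013 when samples were grouped by description, where Tyrobp had a difference of −0.02 and Fyb one of 0.08. Over all rows, 0 passed an adjusted p of 0.05 except with a variance trend and robust moderation (12) or with dim rows, those under the median level, dropped (27, from fewer rows tested). At an unadjusted p of 0.05, 683 rows were higher and 502 lower. Higher rows numbered 453 in samples described as untreated and 249 at a p of 0.01. Lower rows numbered 987 in samples with matching labels, 1236 when grouped by description, 298 with dim rows dropped and 94 at a p of 0.01. Leaving out single samples gave 541 to 779 higher and 384 to 663 lower. Of the pathway genes 6 were higher and 2 lower. Grouping by description gave 1 and 7, samples described as treated 3 and 1, those described as untreated 1 and 0, and a p of 0.01 gave 2 and 0. Centring gave 7 and 1, and dropping dim rows 4 and 0. Among the 23 genes above the 95th percentile of receptor rows, an alternative chosen after seeing the data, 3 were higher and 0 lower. Csf1r, among the 3, passed that level only by its treated values. Single samples left out gave 3 to 6 and 0 to 3. The 9 macrophage markers became 5 with matching labels, 0 by description and 8 to 11 without single samples. The cause of these changes was not tested beyond fewer samples or rows.

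Samples share replicate numbers, and deviations from group means correlated at 0.13, 0.08, 0.02 and 0.19 for numbers 1 to 4. Control samples 2 and 4 correlated best with the treated sample of their own number, and control samples 1 and 3 did not. So few correlations cannot exclude pairs, and the main fit took the samples as unpaired. With the replicate block, 831 rows were higher and 647 lower, 6 and 2 pathway genes passed, the median of the 8 genes was 0.14 and 0 rows passed an adjusted p of 0.05. In 8 of 8 fits without 1 sample, 0 of the 8 genes passed in the description contrast. No gene followed had several rows of its own, so the mean over rows was not run.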
